A study of Homo sapiens with 6 samples.

Results

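The genes described here encode the human proteasome. The list holds 41 genes, chosen by name from knowledge of the complex, with earlier results of these data known. It takes in the 20S core with its 3 interferon-inducible subunits, the 19S regulatory cap, the activators that can dock on the core in place of the cap, and the assembly factor POMP. Of the 41 genes, 40 were found by Ensembl identifier among the 63677 genes listed, and all 40 were among the 16926 genes that had enough counts to be tested. PSMB3, a structural beta subunit, was not matched by identifier and is not analysed here.

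The 26S proteasome degrades proteins that carry ubiquitin chains. Its 20S core is a barrel of stacked rings in which alpha subunits gate the entrance and beta subunits cut the substrate, and the 19S cap binds, unfolds and feeds in the ubiquitinated protein. In immune cells, and in other cells exposed to interferon, PSMB8, PSMB9 and PSMB10 can replace the catalytic subunits PSMB5, PSMB6 and PSMB7 in newly built cores. The resulting immunoproteasome makes peptides that are well suited to presentation by MHC class I. Plasma cells secrete large amounts of protein and depend strongly on this machinery, and the proteasome inhibitors used against multiple myeloma act mainly on PSMB5.

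RNA-Seq was performed on RPMI8226 cells, an established human multiple myeloma (MM) cell line of WT genotype, after 6 hr with 100 nM GST-PTR1 or with 100 nM GST. GST-PTR1 is the proteoglycan tandem repeat 1 domain of the extracellular matrix protein HAPLN1, joined to glutathione-S-transferase and made in bacteria, and GST is the fusion partner on its own. Each treatment had 3 libraries, labelled as biological replicates of the 1 line, so that p-values measure only the spread between these libraries. The question put to these genes was whether their mRNA levels differed between the treatments.

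Libraries are named here by treatment and total counts: 15.2, 20.1 and 23.5 M with GST and 22.9, 28.8 and 44.7 M with GST-PTR1, where M (mega) is the unit in which counts are totalled. Where 3 values are given for a treatment, they follow this order, which is not an order of replicates. Levels are in RPKM, counts per kilobase of exon and per M counts after TMM scaling of the totals, and differences are log2 fold changes of GST-PTR1 over GST from the quasi-likelihood fit of edgeR, whose p-values were adjusted by Benjamini-Hochberg over every gene tested, given with the standard error (SE). A gene is said to rise or fall where the adjusted p was under 0.05. All 8 plasma cell markers examined were detected, at a summed level of 602.5 to 832 RPKM per library, although SDC1, TNFRSF17 and XBP1 fell and SLAMF7, IRF4 and PRDM1 rose. The 4 T cell markers together reached at most 0.0489 RPKM, with CD2 at 0 counts, the 3 stromal markers at most 0.0490, with COL1A2 and DCN at 0, and the 3 myeloid markers 0.151 to 0.418. The 3 erythroid markers summed to 3.51 to 6.96 RPKM, nearly all of it on HBA1 and HBA2, with at most 1 count on HBB. In bulk RNA, fewer cells of a type and less RNA per cell cannot be told apart.

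As a group, the proteasome genes sat slightly higher with GST-PTR1. Of the 40 genes, 10 rose (25%) and 0 fell, against 9.15% of all genes tested that rose and 11.4% that fell. The 10 were PSMA1, PSMA2, PSMA5, PSMA6, PSMB5, PSMB8, PSMB9, PSMB10, PSMC4 and PSMC6. The changes were small, with a median log2 fold change of 0.31 and a range of -0.07 for PSMD5 to 0.83 for PSMA6, while the median of all genes was 0.01. In RPKM, every GST-PTR1 library lay above every GST library for 23 of the 40 genes (57.5%), and for 0 every one lay below. Of all genes, 19.2% and 21.2% did so. These levels rest on TMM factors, which were 1.0524 to 1.09563 with GST and 0.882715 to 0.974777 with GST-PTR1. Dividing by these factors raises the GST-PTR1 libraries relative to the GST libraries. Overlap with library totals in their place was not examined, here or for the single genes below. The log2 fold change was above 0 for 38 of the 40 against 50.7% of all genes, and for 33 when library totals were used in place of TMM scaling. That scaling moved the median of all genes to -0.19, and the median of the proteasome genes stood 0.31 above the median of all genes with either scaling.

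**Figure D1:**
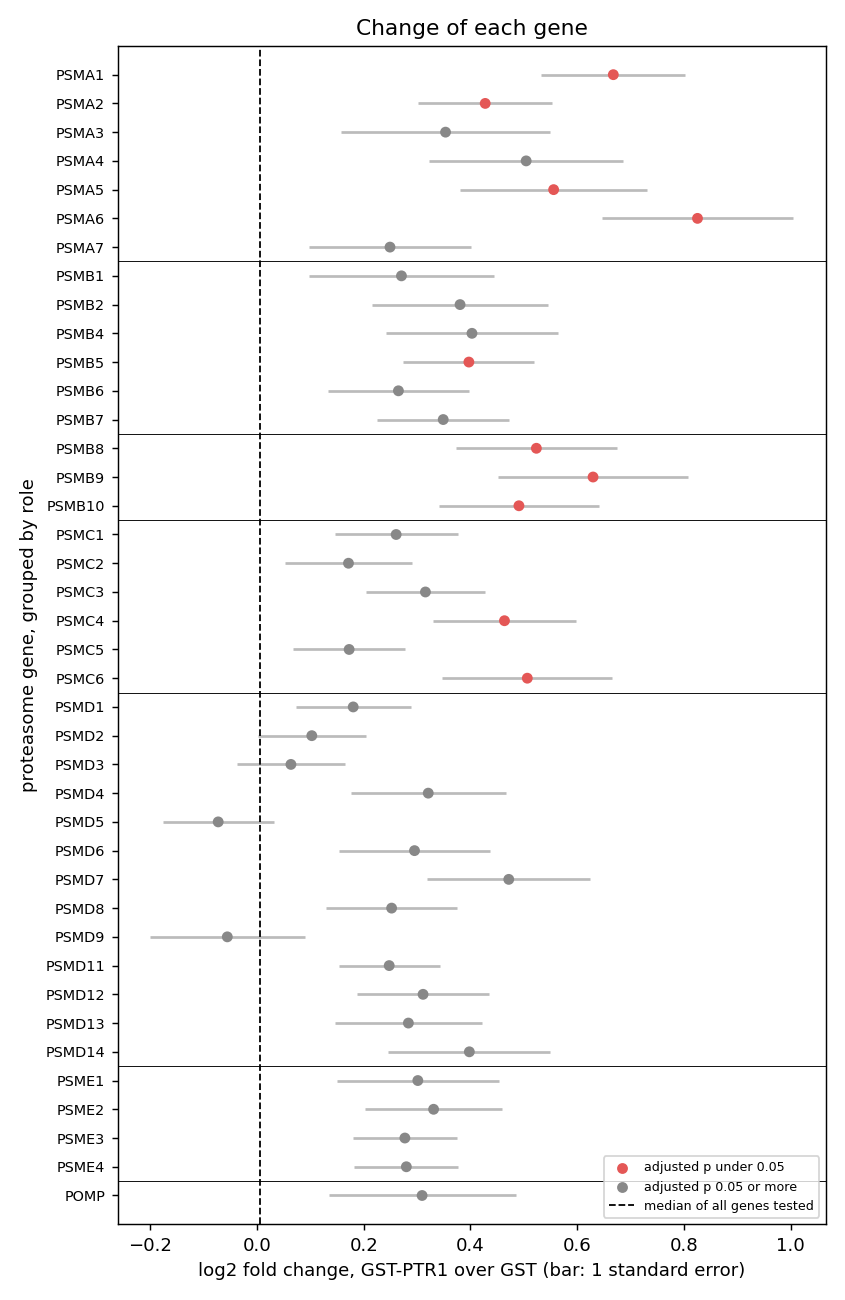
Log2 fold change of GST-PTR1 over GST (x axis) for each of the 40 proteasome genes (y axis, grouped by role), with bars of 1 standard error and a dashed line at the median of all genes tested. Nearly every point lies to the right of the line, and the 10 genes with an adjusted p under 0.05, drawn in red, belong to the 20S alpha ring, PSMB5, the 3 immunosubunits and the 19S ATPases.

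The difference was not spread evenly over the libraries. The 15.2 M GST library, the smallest, was the lowest of the 6 for 33 of the 40 genes, while 27.2% of all genes were lowest there. The 44.7 M GST-PTR1 library, the largest, was the highest for 32 of the 40, against 26.4% of all genes. Relative to each gene's mean over the 6 libraries, the median of the 40 genes stood at -0.41, -0.09 and -0.03 on the log2 scale with GST and at 0.05, 0.08 and 0.37 in the GST-PTR1 libraries. The 4 libraries between the extremes thus kept the order of the treatments with much smaller gaps. In 1 of the alternatives, added after the values were seen, both extreme libraries were left out, and the median log2 fold change was 0.14 with 33 of 40 above 0 and 4 genes that rose, namely PSMA1, PSMA6, PSME3 and PSME4. Those 4 are 10% of the proteasome genes, and 10.2% of all genes rose in the same fit. Without the 15.2 M GST library alone, or without the 44.7 M GST-PTR1 library alone, 2 genes rose in each case, PSMA1 and PSMA6, which is 5% of the proteasome genes against 7.84% and 7.13% of all genes. In these 3 fits the share of proteasome genes that rose was thus not above that of all genes, unlike the 25% against 9.15% with all 6 libraries. The number was 5 (12.5%) without the 20.1 M GST library, the 23.5 M GST library or the 28.8 M GST-PTR1 library, where 7.84%, 6.09% and 6.38% of all genes rose, and 9 (22.5%) without the 22.9 M GST-PTR1 library, where 8.82% did. The part that total counts play in the result was not tested, beyond a thinning of every library to the smallest total, after which 9 genes rose (22.5%, against 8.81% of all genes).

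**Figure D2:**
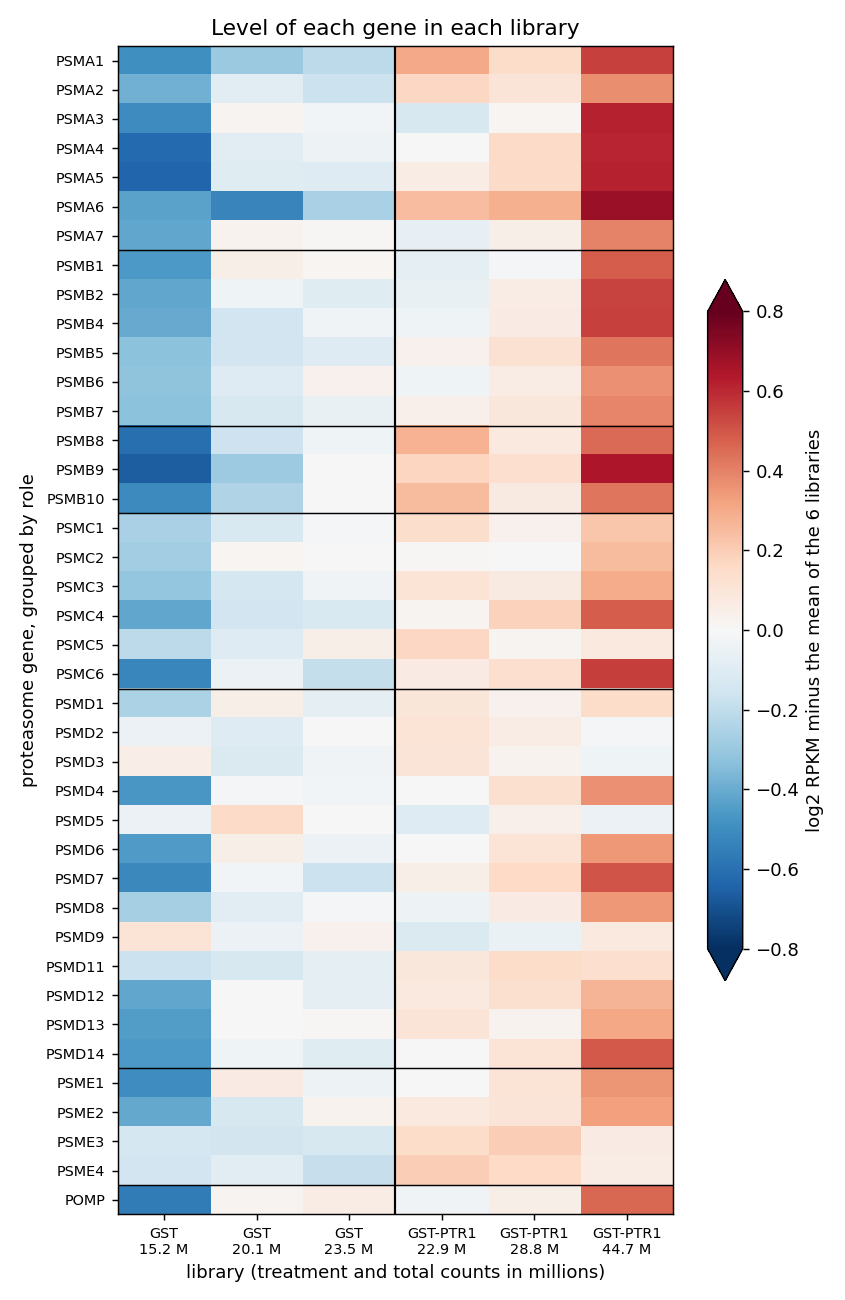
Level of each proteasome gene (y axis, grouped by role) in each of the 6 libraries (x axis, treatment and total counts in M, or mega), coloured by log2 RPKM minus that gene's mean over the libraries. The 15.2 M GST column is the bluest, with a median of -0.41, and the 44.7 M GST-PTR1 column the reddest, with a median of 0.37, while PSMD2, PSMD3, PSMD5 and PSMD9 show little colour in any column.

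All 3 immunosubunits rose, where 9.15% of all genes did. PSMB8, also called LMP7 and the chymotrypsin-like subunit of the immunoproteasome, was at 35.2, 47.6 and 52.3 RPKM with GST and at 64.8, 56.4 and 73.3 with GST-PTR1. Its mean went from 45.1 ± 8.83 to 64.8 ± 8.43 RPKM (SD, n = 3 each), which is a log2 fold change of 0.52 (SE 0.15, edgeR adjusted p = 0.0325). After TMM scaling the treatments did not overlap.
PSMB9, or LMP2, which takes the place of the caspase-like subunit, was at 18.5, 23.9 and 29.3 RPKM with GST and at 33.0, 32.1 and 45.9 with GST-PTR1. Its mean went from 23.9 ± 5.38 to 37.0 ± 7.72 RPKM (SD, n = 3 each), which is a log2 fold change of 0.63 (SE 0.18, edgeR adjusted p = 0.0302). This was the largest change among the beta subunits, and the libraries of the treatments were again apart after TMM scaling. Of its exon bases, 5.66% lie in PSMB8-AS1 on the same strand.
PSMB10, or MECL-1, which replaces the trypsin-like subunit, was at 9.17, 11.1 and 13.1 RPKM with GST and at 15.6, 13.7 and 17.6 with GST-PTR1. Its mean went from 11.1 ± 1.95 to 15.6 ± 1.91 RPKM (SD, n = 3 each), which is a log2 fold change of 0.49 (SE 0.15, edgeR adjusted p = 0.0398). It was the least abundant of the 3 in every library, and 34.8% of its exon bases lie in another gene on the same strand, where reads were not counted.

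The calls of the immunosubunits did not all hold when 1 library was left out. Without the 15.2 M GST library the log2 fold changes were 0.37 for PSMB8, 0.48 for PSMB9 and 0.37 for PSMB10, with edgeR adjusted p of 0.0648, 0.0579 and 0.0956. Without the 44.7 M GST-PTR1 library they were 0.44, 0.46 and 0.41 (edgeR adjusted p = 0.0857, 0.0840 and 0.115). Leaving out the 20.1 M GST library raised the adjusted p to 0.0620, 0.0793 and 0.0885 with log2 fold changes of 0.57, 0.63 and 0.49, and leaving out the 22.9 M GST-PTR1 library raised it to 0.0524 for PSMB8 (0.52) and 0.0636 for PSMB10 (0.49). Without both extreme libraries the log2 fold changes were 0.28, 0.29 and 0.28, and with library totals they were 0.33, 0.43 and 0.29, and in neither fit did any of the 3 have an adjusted p under 0.05. In every one of the 17 alternatives the 3 log2 fold changes stayed above 0.

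PSMB8 and PSMB9 lie next to each other in the MHC class II region, at chr6:32808494-32812480 on the minus strand and chr6:32811913-32827362 on the plus strand of GRCh37, beside TAP1 at chr6:32812986-32821755. TAP1 is a subunit of the transporter that carries proteasome products into the endoplasmic reticulum, and PSMB9 and TAP1 are transcribed away from each other from a shared region, although the span annotated for PSMB9 also runs across TAP1. PSMB10 is on another chromosome, at chr16:67968405-67970990 on the minus strand. Interferon control of these genes is known to run through the promoter, so the 250 bases before the RefSeq start are shown for the 3 immunosubunits, for PSME2 as an interferon-inducible activator and for PSMB5 as a constitutive counterpart. The sequences are from RefSeq on GRCh38.p14, read 5′ to 3′ on the strand of the gene. They cover chr6:32844680-32844929 (minus) for PSMB8, chr6:32853942-32854191 (plus) for PSMB9, chr16:67936851-67937100 (minus) for PSMB10, chr14:24146611-24146860 (minus) for PSME2 and chr14:23035221-23035470 (minus) for PSMB5. Capitals mark matches on either strand to the 5 motifs searched.
PSMB8: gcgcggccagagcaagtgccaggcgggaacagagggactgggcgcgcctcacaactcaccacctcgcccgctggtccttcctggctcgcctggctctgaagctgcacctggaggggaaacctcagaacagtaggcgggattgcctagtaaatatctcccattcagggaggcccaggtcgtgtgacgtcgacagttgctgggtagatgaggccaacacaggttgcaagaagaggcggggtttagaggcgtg
PSMB9: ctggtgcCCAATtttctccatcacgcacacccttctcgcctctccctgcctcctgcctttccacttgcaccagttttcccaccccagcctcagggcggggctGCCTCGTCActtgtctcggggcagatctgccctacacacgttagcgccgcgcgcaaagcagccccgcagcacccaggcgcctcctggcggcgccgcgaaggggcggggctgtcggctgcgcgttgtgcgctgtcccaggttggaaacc
PSMB10: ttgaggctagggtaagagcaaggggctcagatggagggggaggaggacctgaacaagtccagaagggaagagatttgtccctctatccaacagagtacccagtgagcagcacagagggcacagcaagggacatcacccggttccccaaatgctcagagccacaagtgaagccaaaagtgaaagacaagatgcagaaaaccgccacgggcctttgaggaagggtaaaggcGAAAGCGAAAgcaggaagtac
PSME2: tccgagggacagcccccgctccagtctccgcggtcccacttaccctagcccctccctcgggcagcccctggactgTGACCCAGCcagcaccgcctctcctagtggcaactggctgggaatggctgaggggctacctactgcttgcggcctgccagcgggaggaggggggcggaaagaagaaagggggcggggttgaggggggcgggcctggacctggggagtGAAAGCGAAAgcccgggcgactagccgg
PSMB5: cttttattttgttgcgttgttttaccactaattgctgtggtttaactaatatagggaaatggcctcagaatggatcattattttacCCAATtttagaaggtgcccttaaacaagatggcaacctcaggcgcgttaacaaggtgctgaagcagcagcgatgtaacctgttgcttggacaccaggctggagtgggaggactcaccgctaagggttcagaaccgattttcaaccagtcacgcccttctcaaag
The motifs were an interferon-stimulated response element (GAAA and GAAA with NN between them), a gamma-activated site (TTCNNNGAA), an NF-κB site (GGGAA and CC with NNN between them), an antioxidant response element (TGACNNNGC) and the NF-Y box CCAAT, and no matches to different motifs overlapped. The interferon element was present in the promoters of PSMB10, from 21 to 12 bases before the start, and of PSME2, from 28 to 19 bases before it, with the same letters in both. It also matched in PSMA4 and PSMB4, so that 4 of the 35 proteasome genes with a RefSeq promoter held it (11.4%), against 3.07% of all 27305 promoters. In PSMB9 the capitals are an NF-Y box and, 148 to 140 bases before the start, an antioxidant element on the reverse strand, and no motif matched in PSMB8. The gamma-activated motif was in 4 of the 35 promoters (11.4%, against 6.78% of all), the NF-κB motif in 3 (8.57% against 6.03%), the antioxidant motif in 8 (22.9% against 11%) and the NF-Y box in 14 (40% against 33.0%). These are matches of letters in a short window and say nothing of binding in these cells.

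The constitutive catalytic subunits had higher RPKM than their counterparts for 2 of the 3 pairs. PSMB5, the chymotrypsin-like subunit and the target of bortezomib, was at 36.3, 41.1 and 42.5 RPKM with GST and at 46.7, 49.8 and 61.4 with GST-PTR1. It rose from 39.96 ± 3.25 to 52.6 ± 7.72 RPKM (SD, n = 3 each), which is a log2 fold change of 0.40 (SE 0.12, edgeR adjusted p = 0.0425), with no overlap. The adjusted p was between 0.0775 and 0.132 without each of the 3 GST libraries, the 28.8 M or the 44.7 M GST-PTR1 library, with log2 fold changes of 0.28 to 0.44. With library totals the log2 fold change was 0.20 (edgeR adjusted p = 0.223), and without both extreme libraries 0.21 (edgeR adjusted p = 0.124).
PSMB6, the caspase-like subunit, was at 59.4, 69.2 and 75.9 RPKM with GST and at 72.6, 77.4 and 95.6 with GST-PTR1. The treatments overlapped, and the log2 fold change was 0.27 (SE 0.13, edgeR adjusted p = 0.175).
PSMB7, the trypsin-like subunit, was at 80.5, 92.5 and 96.8 RPKM with GST and at 104, 108 and 132 with GST-PTR1. Its libraries did not overlap, and the log2 fold change of 0.35 had an edgeR adjusted p of 0.0706 (SE 0.12).

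**Figure D3:**
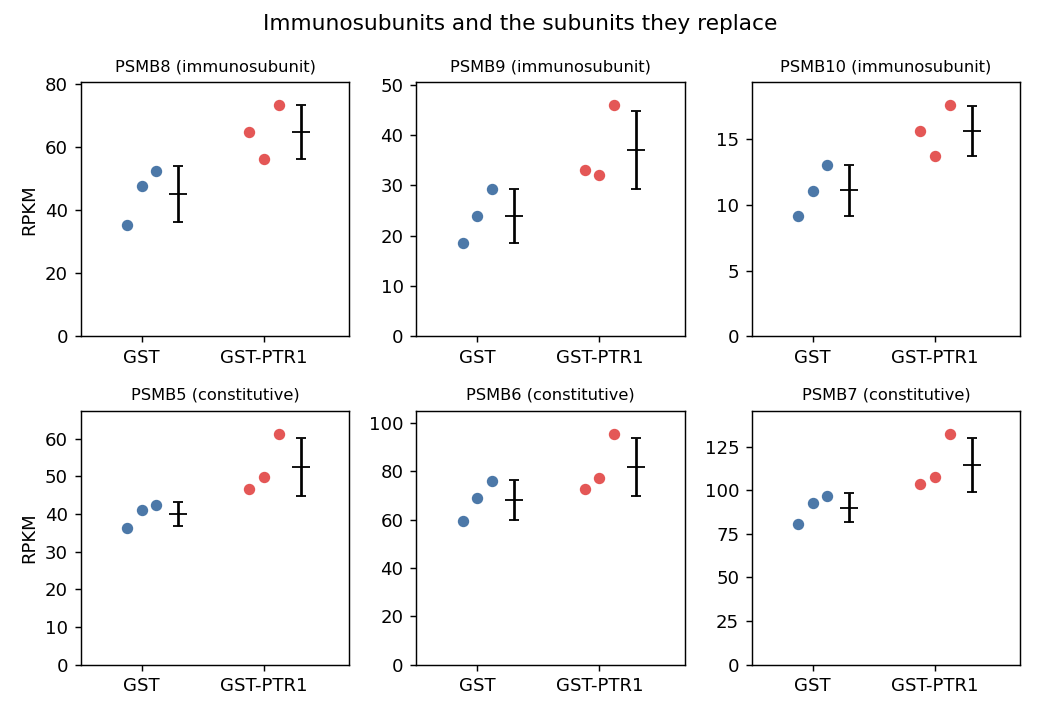
RPKM (y axis, from 0) of the 3 immunosubunits (top row) and the constitutive subunits they replace (bottom row) in the 3 GST and 3 GST-PTR1 libraries, each point a library and the bar the mean with 1 SD. The treatments are apart in every panel but that of PSMB6, where the highest GST library, at 75.9, lies above the lowest GST-PTR1 library, at 72.6.

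Whether the immunosubunits changed more than their counterparts was examined by the ratio within each library, which does not depend on the scaling of totals. PSMB9 to PSMB6 had log2 ratios of -1.68, -1.53 and -1.37 with GST and of -1.14, -1.27 and -1.06 with GST-PTR1. The difference of the means was 0.37 (range over pairs of libraries 0.10 to 0.62), without overlap, and the exact two-sided permutation p was 0.1, the smallest that 3 against 3 libraries can give. Without each library in turn the difference was 0.30 to 0.45. As a share of the RPKM of PSMB9 plus PSMB6, PSMB9 made up 23.8, 25.7 and 27.8% with GST and 31.3, 29.3 and 32.4% with GST-PTR1.
PSMB8 to PSMB5 had log2 ratios of -0.04, 0.21 and 0.30 with GST and of 0.47, 0.18 and 0.26 with GST-PTR1. These overlapped, with a difference of 0.15 (range -0.12 to 0.52, exact permutation p = 0.5), and the difference was 0.05 without the 15.2 M GST library and 0.06 without the 22.9 M GST-PTR1 library. The share of PSMB8 in the RPKM of the pair was 49.3 to 55.2% with GST and 53.1 to 58.1% with GST-PTR1. Such shares depend on the deposited exon lengths and on reads left out where genes overlap. They are therefore not measures of the relative amounts of the 2 mRNAs.
PSMB10 to PSMB7 had log2 ratios of -3.13, -3.06 and -2.89 with GST and of -2.73, -2.97 and -2.91 with GST-PTR1. These overlapped too, with a difference of 0.16 (range -0.08 to 0.40, exact permutation p = 0.3). That difference was 0.10 without the 15.2 M GST library, 0.09 without the 22.9 M GST-PTR1 library and 0.24 after thinning (exact permutation p = 0.1). PSMB10 made up 10.2 to 13.1% of the RPKM of the pair. The 3 ratios were the 3 comparisons of this kind, and with a floor of 0.1 none could reach 0.05 before or after adjustment.

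Of the 7 alpha subunits, which form the outer rings and the gate of the core, 4 rose (57.1%, against 9.15% of all genes). The others had log2 fold changes of 0.25 to 0.50, and the median over the 7 was 0.50. PSMA1 was at 5.34, 6.11 and 6.5 RPKM with GST and at 9.26, 8.30 and 11 with GST-PTR1. It rose from 5.98 ± 0.591 to 9.51 ± 1.35 RPKM (SD, n = 3 each), by 0.67 on the log2 scale (SE 0.13, edgeR adjusted p = 0.00557). This was the proteasome gene with the smallest adjusted p, and it was called in all 17 alternatives, with log2 fold changes of 0.56 without the 44.7 M GST-PTR1 library and 0.48 without both extreme libraries. Its exons share 32.9% of their bases with COPB1 and an unnamed gene on the same strand.
PSMA2 was at 3.84, 4.73 and 4.45 RPKM with GST and at 5.64, 5.40 and 6.49 with GST-PTR1, without overlap. It rose by 0.43 on the log2 scale (SE 0.13, edgeR adjusted p = 0.0343), and the adjusted p was 0.0529 to 0.110 without the 15.2 or the 23.5 M GST library or any 1 of the GST-PTR1 libraries, where the log2 fold change was 0.35 to 0.49. With library totals the log2 fold change was 0.23 (edgeR adjusted p = 0.191), and without both extreme libraries 0.27 (edgeR adjusted p = 0.122).
PSMA5 was at 16.4, 23.9 and 23.7 RPKM with GST and at 26.6, 28.4 and 39.1 with GST-PTR1, also without overlap. It rose by 0.56 on the log2 scale (SE 0.18, edgeR adjusted p = 0.0461), and the adjusted p was 0.0618 to 0.136 without any 1 of the GST libraries or the 28.8 or 44.7 M GST-PTR1 library, where the log2 fold change was 0.38 to 0.65. With library totals the log2 fold change was 0.35 (edgeR adjusted p = 0.105), and without both extreme libraries 0.21 (edgeR adjusted p = 0.0995).

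PSMA6 had the largest log2 fold change of the 40 genes and the lowest mean level with GST. In the GST-PTR1 libraries the lowest mean level was that of PSMD9. PSMA6 was at 0.612, 0.570 and 0.687 RPKM with GST and at 0.977, 1.00 and 1.33 with GST-PTR1. Its log2 fold change was 0.83 (SE 0.18, edgeR adjusted p = 0.00836). A level of this size is far below those of the other alpha subunits, which are built into the core in equal number. The count table lists 4 pseudogenes named after PSMA6, and these took 88.5% of the counts on the gene and its copies. The gene held 66, 78 and 111 counts with GST and 141, 177 and 339 with GST-PTR1, while the copies held 454, 860 and 967 and then 904, 1195 and 2638. With the copies added, an alternative set after the values were seen, the log2 fold change was 0.54 and the edgeR adjusted p 0.0683. The level and the change of PSMA6 are therefore uncertain.
PSMC1 and PSME2, singled out after their values were seen, had similar splits. For PSMC1 the 13 named pseudogenes took 75.3% of the counts, and the log2 fold change was 0.26 for the gene and 0.28 with the copies (edgeR adjusted p = 0.132 and 0.0814). For PSME2 the 6 named pseudogenes took 45.7%, and the log2 fold change was 0.33 for the gene and 0.38 with the copies (edgeR adjusted p = 0.0931 and 0.0758). The next largest share was 10.7%, for PSMA2, which also shares 14.7% of its exon bases with an unnamed gene.

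**Figure D4:**
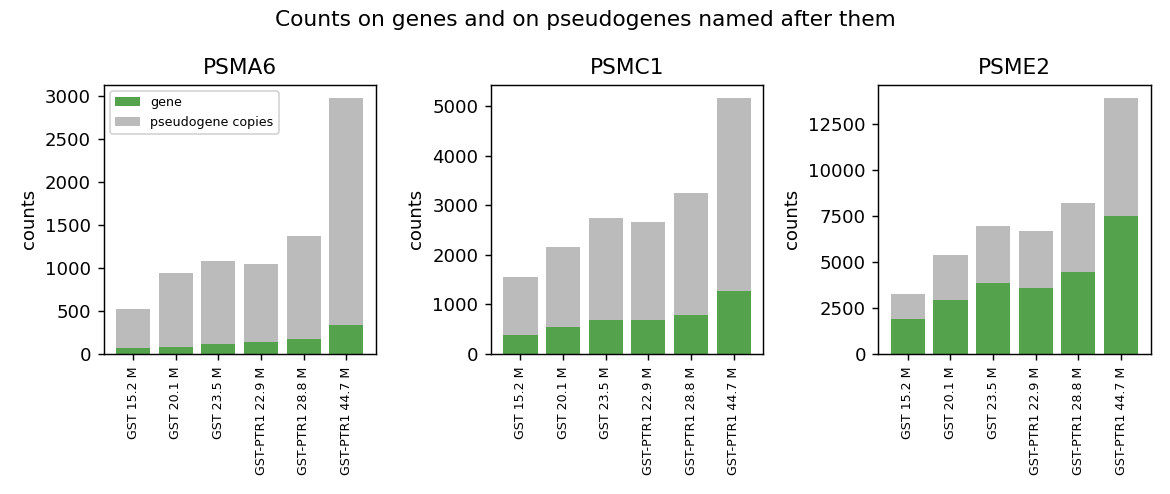
Counts (y axis, from 0) on the genes PSMA6, PSMC1 and PSME2 (green) and on the pseudogenes named after them (gray, stacked on top) in each of the 6 libraries (x axis, treatment and total counts in M, or mega). The copies hold most of the counts of PSMA6 (88.5%) and PSMC1 (75.3%) and nearly as many as the gene for PSME2 (45.7%).

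The 6 constitutive beta subunits analysed had log2 fold changes of 0.27 to 0.40 with a median of 0.36. PSMB5 alone rose (16.7%, against 9.15% of all genes). PSMB4, a structural subunit, had the highest level of all 40 genes, at 128, 153 and 166 RPKM with GST and 166, 178 and 247 with GST-PTR1. Its log2 fold change was 0.40 with an edgeR adjusted p of 0.1 (SE 0.16).

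In the 19S cap, 2 of the 6 ATPases rose and 0 of the 13 non-ATPase subunits did, beside 9.15% of all genes, and the difference between the groups was not tested. The ATPases form the ring that unfolds the substrate and opens the gate, and their median log2 fold change was 0.29. PSMC4 was at 41.8, 50.0 and 51.2 RPKM with GST and at 56.4, 63.2 and 77.7 with GST-PTR1. It rose from 47.7 ± 5.13 to 65.7 ± 10.9 RPKM (SD, n = 3 each), by 0.46 on the log2 scale (SE 0.13, edgeR adjusted p = 0.0328), and the adjusted p was 0.0602 to 0.0938 without any 1 of the GST libraries or the 28.8 or 44.7 M GST-PTR1 library, where the log2 fold change was 0.34 to 0.52. With library totals the log2 fold change was 0.26 (edgeR adjusted p = 0.126), and without both extreme libraries 0.24 (edgeR adjusted p = 0.0699).
PSMC6 was at 4.0, 5.58 and 5.05 RPKM with GST and at 6.02, 6.31 and 8.45 with GST-PTR1. It rose from 4.88 ± 0.801 to 6.93 ± 1.33 RPKM (SD, n = 3 each), by 0.51 on the log2 scale (SE 0.16, edgeR adjusted p = 0.0450), and the adjusted p was 0.0645 to 0.148 without the 15.2 or 23.5 M GST library or the 28.8 or 44.7 M GST-PTR1 library, where the log2 fold change was 0.35 to 0.58. With library totals the log2 fold change was 0.30 (edgeR adjusted p = 0.132), and without both extreme libraries 0.22 (edgeR adjusted p = 0.174). Neither gene had overlapping treatments. The other 4 ATPases had log2 fold changes of 0.17 to 0.32, and the smallest adjusted p among them was 0.0674.

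The non-ATPase subunits, which bind ubiquitin chains, remove them and hold the lid together, had a median log2 fold change of 0.25, and 6 of the 13 (46.2%) had no overlap between treatments, all with GST-PTR1 higher, as 19.2% of all genes had. The highest change was that of PSMD7, a lid subunit that pairs with the deubiquitinase PSMD14, at 54.2, 76.0 and 68.7 RPKM with GST and 79.8, 86.3 and 109.7 with GST-PTR1. Its log2 fold change of 0.47 had an edgeR adjusted p of 0.0505 and thus missed the threshold, and it was under 0.05 in 9 of the 17 alternatives. The lowest were those of PSMD5 and PSMD9, which act as chaperones in building the base of the cap and are not part of the finished particle, at -0.07 and -0.06 (edgeR adjusted p = 0.650 and 0.814). PSMD5 was at 10.4, 11.9 and 10.7 RPKM with GST and 9.98, 11 and 10.3 with GST-PTR1. PSMD9 was at 0.793, 0.712 and 0.753 RPKM with GST and 0.680, 0.709 and 0.777 with GST-PTR1. The ranges of the treatments overlapped for both. PSMD2 and PSMD3, large subunits of base and lid, had log2 fold changes of 0.10 and 0.06, which became -0.09 and -0.13 with library totals.

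None of the 4 activators passed the test. For 3 of them (75%) every GST-PTR1 library lay above every GST library, against 19.2% of all genes. PSME3, or PA28 gamma, the nuclear activator, was at 56.8, 56.6 and 57.2 RPKM with GST and at 69.4, 71.9 and 65.5 with GST-PTR1. Its means were 56.9 ± 0.262 and 68.9 ± 3.24 RPKM (SD, n = 3 each), with a log2 fold change of 0.28 (SE 0.10, edgeR adjusted p = 0.0677).
PSME4, or PA200, which is linked to the degradation of acetylated histones, was at 20.01, 20.9 and 19.6 RPKM with GST and at 25.4, 24.8 and 23.2 with GST-PTR1. Its means were 20.2 ± 0.679 and 24.5 ± 1.17 RPKM (SD, n = 3 each), with a log2 fold change of 0.28 (SE 0.10, edgeR adjusted p = 0.0651). In PSME3 and PSME4 the 15.2 M GST library was not set apart and the 44.7 M GST-PTR1 library was the lowest of its treatment, unlike in most of the other genes. Without both extreme libraries each had a log2 fold change of 0.31 and an edgeR adjusted p of 0.0137 and 0.0151. Over the 17 alternatives PSME3 was called in 4 and PSME4 in 3.
PSME1 and PSME2 encode the alpha and beta subunits of PA28, the interferon-inducible activator, and lie close together at chr14:24605367-24608176 (plus strand) and chr14:24612574-24616779 (minus strand) of GRCh37. PSME1 was at 72.8, 107 and 99.98 RPKM with GST and 103, 111 and 131 with GST-PTR1, with overlap and a log2 fold change of 0.30 (SE 0.15, edgeR adjusted p = 0.179), which was 0.15 without the 15.2 M GST library and 0.05 without both extreme libraries. PSME2 was at 31.7, 38.6 and 43.0 RPKM with GST and 44.4, 45.2 and 52.9 with GST-PTR1, without overlap (log2 fold change 0.33, SE 0.13, edgeR adjusted p = 0.0931).
POMP, the chaperone that helps beta rings assemble, was at 35.7, 53.5 and 54.9 RPKM with GST and at 51.8, 54.4 and 72.5 with GST-PTR1. The treatments overlapped and the log2 fold change was 0.31 (SE 0.18, edgeR adjusted p = 0.230).

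A further list of 53 genes of the same pathway, none of them among the 41, was set beside these. Of the 51 that could be tested, 9 rose (17.6%, against 9.15% of all genes) and 0 fell (against 11.4%), and the median log2 fold change was 0.18. PSMA8, the testis form of an alpha subunit, had at most 1 count in any library and PSMB11, the thymus form of a catalytic subunit, had 0, so neither tissue form was detected at this depth. The genes that rose included 0 of the 6 assembly chaperones, 0 of the 7 proteasome-associated ubiquitin enzymes and inhibitor, and 0 of the 5 genes for ubiquitin and its activation, groups too small to set a count of 0 apart from the 9.15% of all genes.

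Among the genes listed for interferon control of the immunosubunits, IRF1, IRF2, IRF8 and NLRC5 rose. Whether interferon signalling played a part was not tested. IRF1, the factor known to drive PSMB9 and TAP1 transcription, was at 9.60, 9.42 and 10.7 RPKM with GST and at 31.6, 33.5 and 33.8 with GST-PTR1. It rose by 1.73 on the log2 scale (SE 0.10, edgeR adjusted p = 6.98e-07), and no library was near the other treatment.
IRF8 went from 9.16 ± 0.900 to 29.2 ± 1.82 RPKM (SD, n = 3 each; log2 fold change 1.67, edgeR adjusted p = 1.63e-06), IRF2 rose by 0.95 (adjusted p = 0.000117), and NLRC5, the transactivator of MHC class I genes, rose by 0.65 (adjusted p = 0.00501). STAT2 and IRF9, named after their values were seen, had log2 fold changes of -0.04 and 0.10 with overlapping treatments (edgeR adjusted p = 0.869 and 0.699).
TAP1 was at 40.1, 44.5 and 52.6 RPKM with GST and at 106, 92.4 and 97.0 with GST-PTR1. It rose by 1.11 (SE 0.12, edgeR adjusted p = 0.000112), whereas its neighbour PSMB9 rose by 0.63. The log2 ratio of TAP1 to PSMB9 was 1.12, 0.90 and 0.84 with GST and 1.69, 1.53 and 1.08 with GST-PTR1, so that the treatments overlapped (difference 0.48, exact permutation p = 0.2). TAP2, the other subunit of the transporter, rose by 0.45 (edgeR adjusted p = 0.0138).

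Among the regulators of proteasome genes at large, NFE2L2, which encodes NRF2, rose, and NFE2L1, which encodes NRF1, the factor that restores proteasome gene expression after inhibition, did not pass the test. NFE2L2 was at 13.5, 14.1 and 13.4 RPKM with GST and at 21.3, 22.0 and 21.0 with GST-PTR1, a log2 fold change of 0.65 (SE 0.09, edgeR adjusted p = 0.000619). NFE2L1, named after its values were seen, was at 43.0, 35.9 and 36.3 RPKM with GST and at 39.6, 40.9 and 35.9 with GST-PTR1 (log2 fold change 0.01, edgeR adjusted p = 0.943). SQSTM1, or p62, which gathers ubiquitinated proteins for autophagy and is a known NRF2 target, was at 55.0, 60.9 and 60.1 RPKM with GST and at 92.9, 109.8 and 117 with GST-PTR1. It rose by 0.86 (SE 0.12, edgeR adjusted p = 0.000564), with wide separation of the treatments.

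As a set, the 40 proteasome genes were more abundant than most genes and close to them in median exon length and GC content. Their median level with GST was 38.9 RPKM against 4.28 for all genes tested. The median exon length was 3558.5 bases against 3685, and the median GC content 47.7% against 47.9%. Their counts made up 0.543, 0.626 and 0.641% of the total with GST and 0.629, 0.628 and 0.695% with GST-PTR1, where the 23.5 M GST library lies above 2 of the GST-PTR1 libraries.

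**Figure D5:**
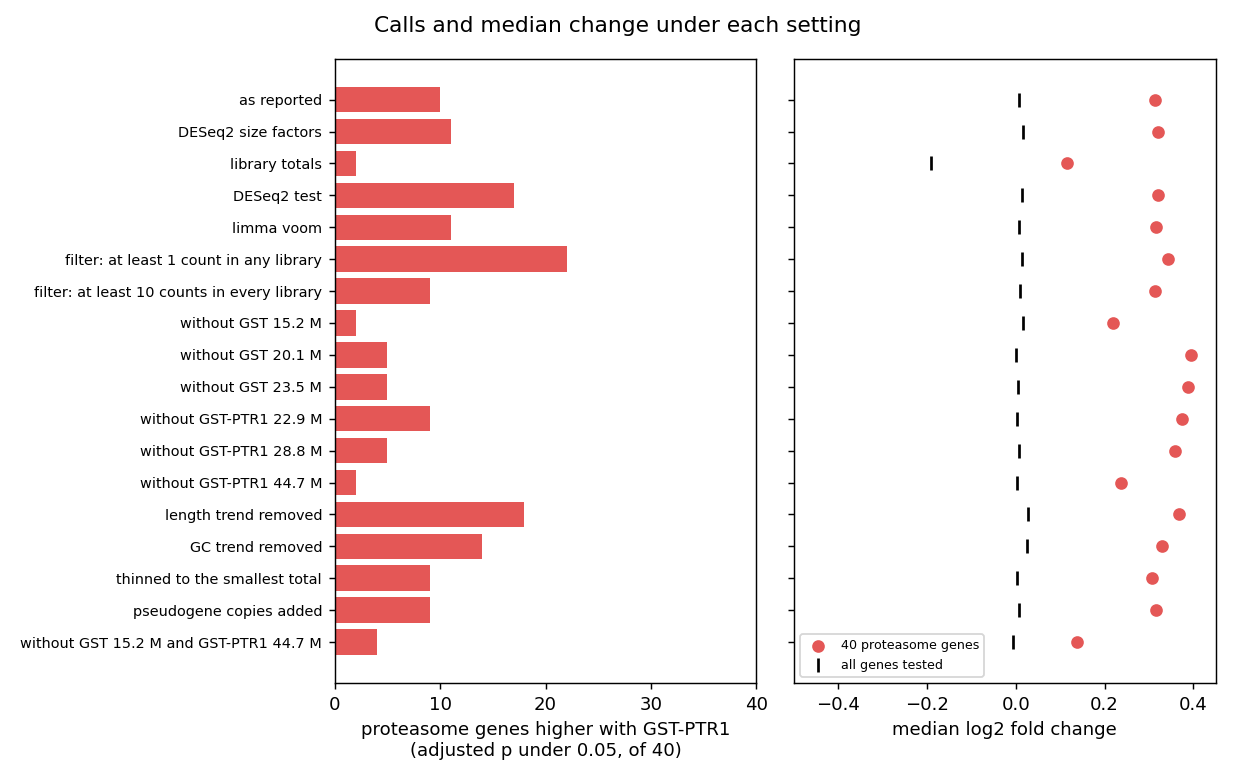
Number of the 40 proteasome genes higher with GST-PTR1 (left, bars from 0) and median log2 fold change of those genes and of all genes tested (right) under each way of processing the counts (y axis, M for mega). The number runs from 2 to 22 while the median of the proteasome genes lies above that of all genes in every row, by 0.14 at the least, without both extreme libraries.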

How the data were processed

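RNA-Seq had been performed on 6 RPMI8226 libraries, 3 exposed to GST and 3 to GST-PTR1, each at 100 nM over 6 hr. The authors deposited raw counts per gene as whole numbers, made with featureCounts version 1.5.0-p1 on the Ensembl release 75 annotation of GRCh37 (hg19) with a strand setting of 2, and exon lengths. Subread is listed in the submitters' processing notes, and the aligner's settings are not given in the sources used here. Reads shared by several genes or places were left out, which lowers the counts of genes with near-identical or overlapping copies. Column names give the treatment, with numbers that do not match the replicate labels, and 0 columns of per-sample values were unmapped. The smallest chi-square per gene between replicates was 8.47, so all 6 were kept as separate libraries.

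Totals ran from 15202503 to 44688737 counts. At these totals 3 counts are worth 0.0671 to 0.197 CPM, which covers counting error only. The test was that of edgeR 4.0.16 in R 4.3.3 (TMM, filterByExpr, glmQLFit, glmQLFTest, Benjamini-Hochberg over 16926 genes, threshold 0.05). The fit was first tested on simulated data. RPKM was computed from the deposited exon lengths and TMM-scaled totals. Ratios were compared by exact two-sided permutation tests over libraries. Promoters were the 250 bases before the first listed RefSeq start. Exon overlap and pseudogene names came from the deposited coordinates and the gene name table, which named 52181 genes. The members and lists were chosen with earlier results of these data known. Values in every library are given for the immunosubunits, their counterparts, PSME1 to PSME4, POMP and members with an adjusted p under 0.05, and the highest and lowest of the rest are named. Of the pathway list, genes under 0.05 may be named. Results of 1 gene of that list are not reported here.

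Alternatives were DESeq2 1.42.0 size factors, library totals, the DESeq2 test, limma 3.58.1 voom, low-count filters (1 count or more in any library, or 10 or more in each), leaving out each library, removal of length or GC trends (GC was known for 97.4% of genes), thinning, and for ratios CPM with a prior count of 2. Pseudogene copies added to their gene and the fit without both extreme libraries were chosen after seeing the data. Python 3.11.15, pandas 2.3.3 and matplotlib 3.10.9 were used for tables and figures.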

Additional observations from a re-analysis of the deposited data

How the results depend on the processing

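The number of proteasome genes higher with GST-PTR1, 10 of 40 as reported (25%, against 9.15% of all genes), was 2 with library totals (5% against 5.48%), 17 with the DESeq2 test (42.5% against 10.7%), 22 with the filter of at least 1 count in any library (55% against 8.25%), 18 with the length trend removed (45% against 11.9%), 4 without both extreme libraries (10% against 10.2%), and 2 to 9 when each library was left out in turn (5 to 22.5%, against 6.09 to 8.82%). The share was thus not above that of all genes with library totals, without both extreme libraries, or without the 15.2 M GST or the 44.7 M GST-PTR1 library. Over all genes, 927 were higher and 3788 lower with library totals, 2608 were higher with the filter of at least 1 count, and 1179 to 1818 were lower when each library was left out. Of the 53 other pathway genes listed, 14 were higher with that filter (8.25% of all genes) and 15 with the length trend removed (11.9% of all genes). With the GC trend removed 14 were higher (11.6% of all genes), and without both extreme libraries 17 (10.2% of all genes). One of them, PAAF1, was lower with library totals. Without both extreme libraries the log2 fold change turned to -0.0535 for PSMA3, -0.0289 for PSMA7, -0.0737 for PSMB1, -0.00528 for PSMC2 and -0.0293 for POMP. With library totals it turned to -0.0266 for PSMC2, -0.0207 for PSMC5, -0.0144 for PSMD1, -0.0908 for PSMD2 and -0.13 for PSMD3, and with the length trend removed to 0.0398 for PSMD9. None of these genes was called as reported. The fit without both extreme libraries had fewer libraries, and with library totals the median of all genes shifted to -0.19. The cause of the changes of sign was not tested. PSMA1 was called in 17 of 17 alternatives and PSMA6 in 16. With 3 libraries against 3, the exact permutation tests of the ratios could not go below p = 0.1. No paired analysis was possible because the columns of the count table carry numbers that cannot be matched to the replicate numbers of the samples, so the fit with replicate number as a block was not run.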
